A study of Mus musculus with 14 samples.

Results

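Antioxidant, glutathione and NRF2 genes were followed in MEFs (fibroblasts cultured directly from mouse embryos) after infection with reprogramming factors. The set was a list of 44 genes, each read from a probe whose platform annotation gave that gene's symbol alone, and from the probe with the highest mean signal where a gene had several. The list held 41 measured genes of 19938 in the table, and Prdx5, Prdx6 and G6pdx were left out for want of a probe naming them alone. The cells had been infected in 2 rounds with retroviruses for Sox2, Klf4 and Oct4 (SKO; Oct4 is the protein of Pou5f1), or for green fluorescent protein (GFP) as the control. At 2 days after the last infection all cells were moved to embryonic stem cell medium, which held serum, leukaemia inhibitory factor and the reducing agent beta-mercaptoethanol in every group. The groups were SKO cells with 50 µg/ml vitamin C and SKO cells without it, each lysed on days 3, 4, 5, 6, 8 and 10, and GFP cells with and without the vitamin, lysed on day 3 only. The mouse strain and the number of embryos behind the fibroblasts are not given in the labels.

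Vitamin C (ascorbate) is a water-soluble antioxidant and a cofactor of iron-dependent dioxygenases. The transcription factor NRF2 (gene Nfe2l2) is held at a low level by KEAP1, which presents it for degradation; oxidants and electrophiles that modify KEAP1 let NRF2 enter the nucleus and act at antioxidant response elements. Its targets make, recycle and use glutathione and thioredoxin, supply NADPH through the pentose phosphate pathway, and conjugate or export reactive compounds. Metallothioneins, small cysteine-rich metal-binding proteins, respond mainly to zinc and cadmium through metal response elements. Since NRF2 is controlled mostly through its protein, its mRNA need not follow its activity, and only mRNA was measured.

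The start regions of the members were searched for both elements in RefSeq promoter windows of 300 bases (250 before and 50 after a start, assembly GRCm38.p6), which held 35 of the 41 measured members. The antioxidant response element was searched as TGACNNNGC and the metal response element as TGCACNC or TGCGCNC, on both strands. The first was found in 11 of the 35 members (31.4%), against 14% of all genes in the table, and the second in 8 of the 35 (22.9%), against 28.2% of all genes. The matches are descriptions of letters, not shown sites of binding. The windows of the neighbouring metallothionein genes, both of which were higher on day 10 than on day 3, are shown because they hold several metal element matches each. Capitals mark the matches to either element, and the first 280 bases are printed for Mt1 (chr8:94178839-94179118, plus strand) and for Mt2 (chr8:94172368-94172647, plus strand):
Mt1: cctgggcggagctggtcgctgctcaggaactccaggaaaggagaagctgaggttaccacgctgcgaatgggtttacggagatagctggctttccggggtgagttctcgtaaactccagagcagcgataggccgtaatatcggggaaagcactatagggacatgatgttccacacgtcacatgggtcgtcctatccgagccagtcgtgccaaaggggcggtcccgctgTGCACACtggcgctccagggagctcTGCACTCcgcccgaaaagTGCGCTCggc
Mt2: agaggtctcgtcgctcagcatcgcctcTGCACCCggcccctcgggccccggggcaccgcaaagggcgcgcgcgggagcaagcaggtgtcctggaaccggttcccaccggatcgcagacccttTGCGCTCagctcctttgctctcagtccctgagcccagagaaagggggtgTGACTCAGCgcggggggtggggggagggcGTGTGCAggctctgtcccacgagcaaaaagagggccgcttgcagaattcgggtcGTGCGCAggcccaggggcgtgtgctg
The Mt1 window held 3 metal element matches and the Mt2 window held 4, and Mt2 alone of the pair held the antioxidant element, on the plus strand. Stretches around the antioxidant element match, with 20 bases on each side and the match in capitals, are shown for Mgst1 (chr6:138140451-138140499), Prdx1 (chr4:116685446-116685494) and Txnrd1 (chr10:82859094-82859142), all on the plus strand, as examples of members that passed the test in a comparison below, all with the match before the start (in Srxn1 and Pgd, which passed too, it lies after the start):
Mgst1: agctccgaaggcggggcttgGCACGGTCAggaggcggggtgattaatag
Prdx1: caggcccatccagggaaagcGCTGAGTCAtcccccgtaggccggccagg
Txnrd1: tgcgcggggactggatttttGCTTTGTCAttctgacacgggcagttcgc
In these 3 stretches the element reads on the strand opposite to the gene. Mgst1 and Txnrd1 had more than 1 start in the promoter table, and their windows at the other starts held no match to this element. In Prdx1 and Mt2 the match overlaps TGANTCA, the letters of an AP-1 site, which 8.97% of all genes in the promoter table hold. The other members with an antioxidant element match were Gclm, Gsta3, Nfe2l2, Pgd, Sod1, Srxn1 and Ugdh.

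One array was hybridised for each condition and day, 14 in all, and the deposited values are log2 signals. The medians over genes lay between 5.47 and 5.55, and the number of arrays limits the precision. Conditions were not repeated on any day, so the tests below measure the spread within this 1 time course and not between independent cultures. The 13 fibroblast markers had a mean log2 signal of 9.37 to 9.55 in SKO cells with vitamin C and 9.34 to 9.60 in SKO cells without it, and of 10.3 in GFP cells with vitamin C and 9.93 in GFP cells without it, so the labelled cell type was seen on every array. Among 15 macrophage markers 11 were higher on day 10 than on day 3 in SKO cells, against 6.55% of all genes. So were 4 of 6 epithelial and 4 of 8 pluripotency markers. Of the 13 fibroblast markers 8 were lower in SKO than in GFP cells, against 8.43% of all genes. The part of these cell types in the results on the days and on the virus was not tested. In bulk RNA, fewer cells of a type and less RNA per cell cannot be told apart. Log2 differences are given as treated minus untreated, SKO minus GFP, or later minus earlier day, and a probe's level is not set against that of another probe.

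Over the 14 arrays the range between lowest and highest log2 signal had a median of 1.07 for the members and 0.843 for all 19938 genes. Ranges over 1 were seen in 25 members (61.0%) and in 33.4% of all genes. The median signal of the members on an array was also above that of all genes, at 7.83 to 8.36. The widest were those of the microsomal glutathione transferase Mgst1 (2.55), the secreted glutathione peroxidase Gpx3 (2.47), the transferase Gsta4 (2.30), the cytosolic thioredoxin Txn1 (2.17) and Mt2 (2.11). The range of Txn1 rested on 1 array, that of treated SKO cells on day 4. Gpx2 and Gsta3, with mean log2 signals of 4.33 and 4.40, lay under 4.54, as the weakest 33% of genes did, and RMA values understate differences there.

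**Figure D1:**
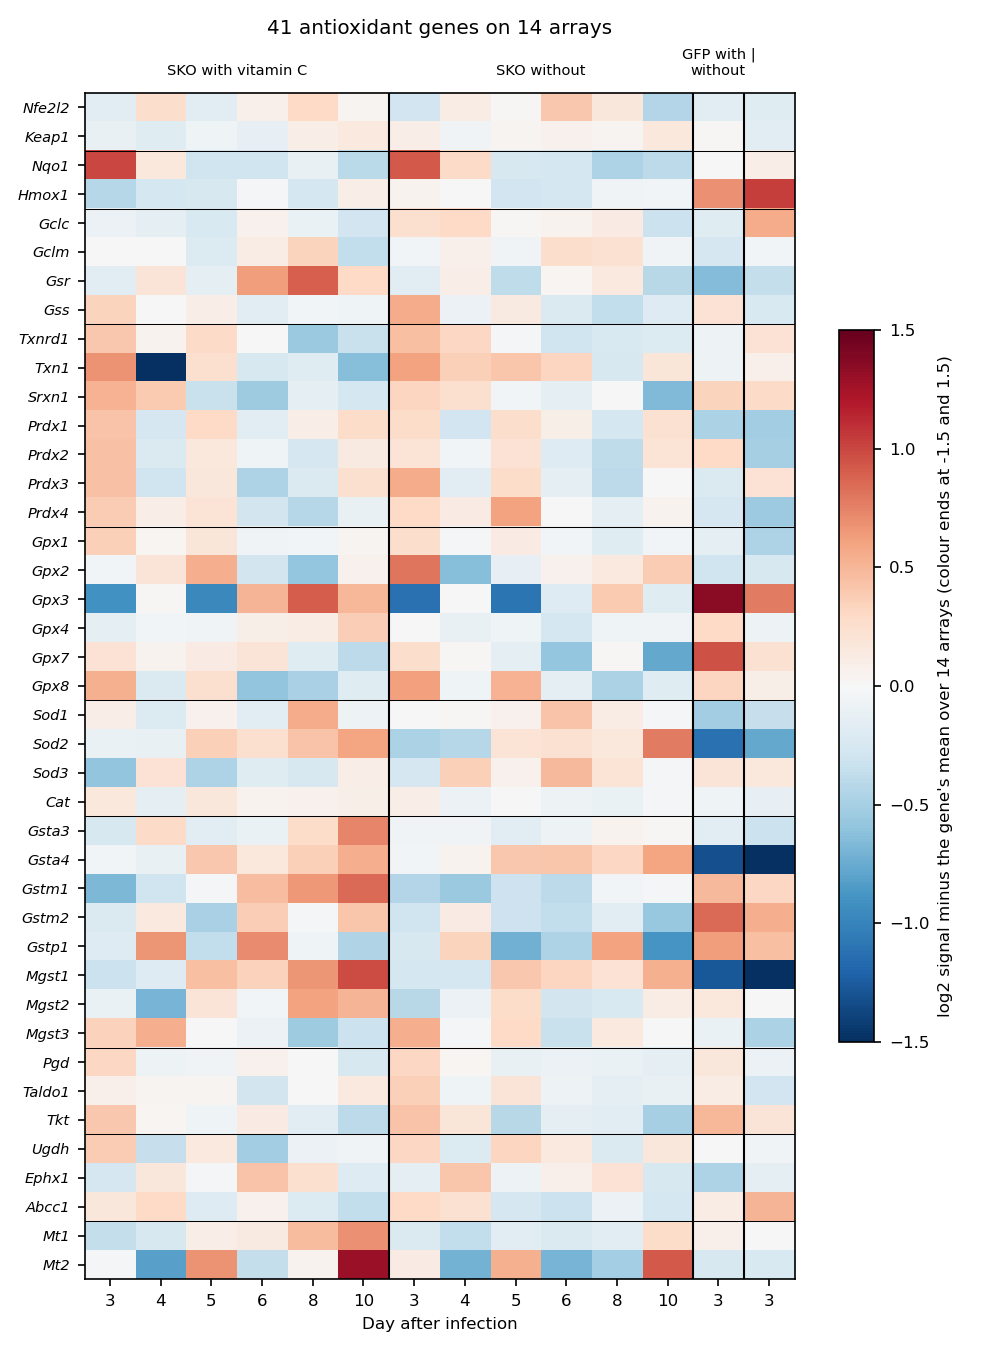
Each gene's log2 signal minus its own mean over the 14 arrays (colour, in log2 units, ending at -1.5 and 1.5), with genes in rows by role and arrays in columns by group and day. The lowest columns of Gsta4, Mgst1 and Sod2 are the 2 GFP arrays, Nqo1 is highest on day 3 of both SKO groups, and Mt2 is highest on day 10.

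The first comparison asked whether vitamin C moved these genes in SKO cells, with each treated array set against the untreated array of the same day. No member passed the test: 0 of 41 were higher, against 0.642% of all 19938 genes, and 0 of 41 lower, against 0.291% (limma, adjusted p under 0.05 over all genes). The members' median log2 difference was 0.03, with 24 above 0 and 17 below, and the median over all genes was -0.01. By unadjusted p under 0.05 there were 6 members. The share of all genes at that level was not counted, so this number cannot be read as an excess. The 95% intervals lay within 0.5 log2 units of 0 for 32 members and within 1 for 40, and only that of Txn1 reached past 1 (-1.01 to -0.09).

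The regulators stayed close to 0. Nfe2l2 had a mean difference of 0.06 (95% interval -0.17 to 0.30) and Keap1 of -0.10 (-0.27 to 0.08). The NRF2 targets most used as readouts were also near 0: the quinone reductase Nqo1 at 0.03 (-0.16 to 0.23), the heme oxygenase Hmox1 at -0.09 (-0.32 to 0.14), Srxn1, which repairs overoxidised peroxiredoxins, at -0.01 (-0.26 to 0.24), and the thioredoxin reductase Txnrd1 at -0.02 (-0.25 to 0.21). The subunits of the enzyme that limits glutathione synthesis, Gclc and Gclm, had -0.20 (-0.40 to 0.00) and -0.09 (-0.28 to 0.10). For these genes the intervals leave room for a change of less than 0.5 log2 units in either direction.

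The 6 members of largest moderated t are given by day, although none passed. Gsr, the reductase that returns oxidised glutathione to its reduced form, had log2 signals of 8.09, 8.44, 8.10, 8.87, 9.15 and 8.54 in treated SKO cells on days 3, 4, 5, 6, 8 and 10, against 8.08, 8.34, 7.86, 8.28, 8.39 and 7.83 in untreated SKO cells. The treated array was at or above its partner on all 6 days, by less than 0.1 on days 3 and 4 and by 0.59 to 0.76 from day 6 on, and the 2 groups overlapped. Its mean log2 difference was 0.40 ± 0.12 (moderated standard error of the limma fit, 1.32-fold, adjusted p = 0.167).

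Gstm1, a cytosolic mu-class transferase that joins glutathione to electrophiles, had 7.04, 7.40, 7.68, 8.18, 8.36 and 8.56 in treated SKO cells on those days, against 7.27, 7.15, 7.40, 7.32, 7.67 and 7.67 in untreated SKO cells. The treated array was lower on day 3 and higher on the 5 later days. Its mean log2 difference was 0.46 ± 0.14 (1.37-fold, adjusted p = 0.191). Without day 3 it was 0.59 (adjusted p = 0.0411), and over days 6, 8 and 10 alone 0.81 (adjusted p = 0.0211), so the call on Gstm1 depends on the days used; Gsr came to 0.68 over those 3 days (adjusted p = 0.0523). Over 19 alternatives the adjusted p of Gstm1 ran between 0.0211 and 0.994. Gstm2, a related gene of the same class, lies beside it, and whether their probes share RNA was not tested.

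Gpx3 had 6.83, 7.76, 6.77, 8.25, 8.64 and 8.24 in treated SKO cells, against 6.62, 7.75, 6.64, 7.54, 8.13 and 7.56 in untreated SKO cells. It was higher on all 6 days, with the groups overlapping, and its mean log2 difference was 0.37 ± 0.11 (1.30-fold, adjusted p = 0.172). Gsr and Gpx3 were the 2 members (4.88%) above the untreated partner on all 6 days, which 3.9% of all genes were, and no member was below on all 6, as 3.2% of all genes were. Mt1 had 9.30, 9.41, 9.76, 9.79, 10.13 and 10.34 in treated SKO cells, against 9.44, 9.28, 9.50, 9.44, 9.50 and 9.94 in untreated SKO cells. It was lower on day 3 and higher on the 5 later days (log2 difference 0.27 ± 0.10, 1.21-fold, adjusted p = 0.320). Mt2 was lower on days 3 and 4 and higher on the 4 later days, with a mean of 0.19 (95% interval -0.04 to 0.43).

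On the lower side were Sod3, the extracellular superoxide dismutase, and Txn1. Sod3 had 4.57, 5.38, 4.69, 4.98, 4.92 and 5.26 in treated SKO cells, against 4.91, 5.52, 5.22, 5.64, 5.36 and 5.13 in untreated SKO cells. It was lower on 5 of 6 days and overlapped between the groups (log2 difference -0.33 ± 0.11, adjusted p = 0.235). Txn1 had 9.80, 7.63, 9.38, 8.90, 8.96 and 8.49 in treated SKO cells, against 9.74, 9.49, 9.55, 9.46, 8.89 and 9.31 in untreated SKO cells. The value of 7.63 on day 4 was the lowest of all 14 arrays, and the mean log2 difference of -0.55 ± 0.21 (adjusted p = 0.330) became -0.29 (adjusted p = 0.511) without that day.

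**Figure D2:**
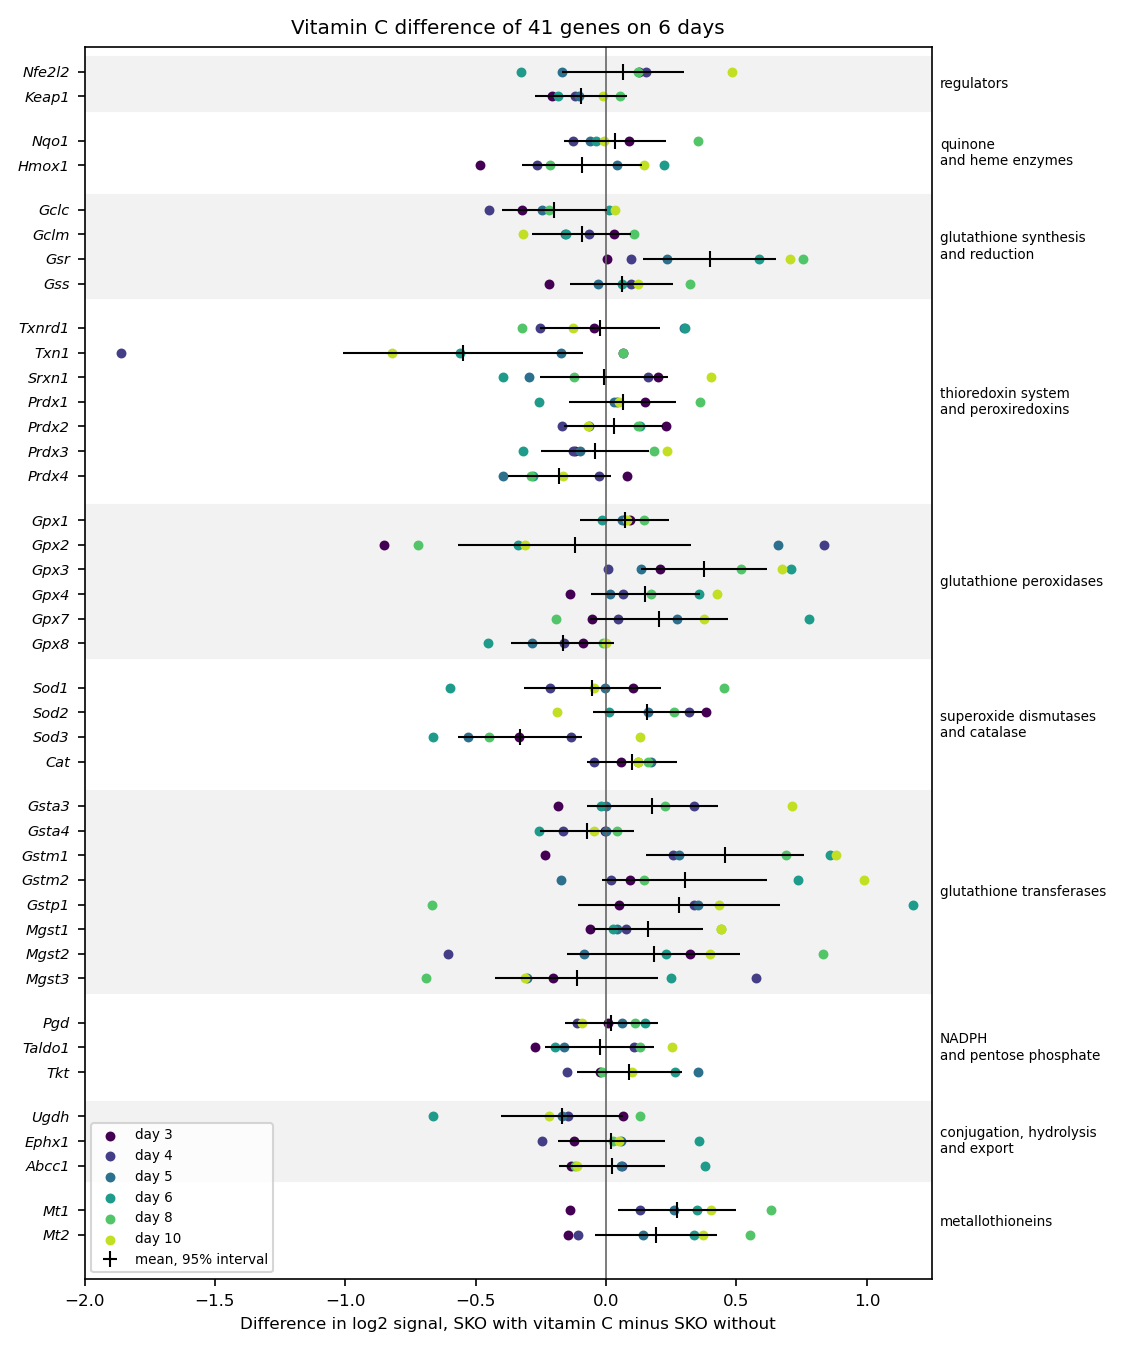
Log2 signal of SKO cells with vitamin C minus SKO cells without it for the 41 measured members (rows, by role), with 1 dot per day and the mean with its 95% interval in black. The dots of Gsr, Gstm1, Mt1 and Mt2 from days 6, 8 and 10 lie right of those from day 3, and no member passed the test.

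A drift of the vitamin C difference over the course was tested as a slope per day. No member passed (0 of 41, against 0.0351% of all genes, limma), with a lowest adjusted p of 0.412. At unadjusted p under 0.05 there were 6 members and 1569 of all genes. In order of p these members were Gstm1 at 0.14 ± 0.04 and Gsr at 0.11 ± 0.04 log2 units per day, Mt2 (0.09), Gstm2 (0.12), Gsta3 (0.09) and Mgst1 (0.08). The daily medians of the 41 differences were -0.02, -0.03, 0.00, 0.02, 0.12 and 0.10 on days 3, 4, 5, 6, 8 and 10, and 19, 20, 21, 23, 28 and 26 members were above 0 on those days. The medians over all genes lay between -0.03 and 0.01.

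The vitamin C difference of the 1 GFP pair on day 3 was set against that of the 6 SKO pairs. No member passed (0 of 41, against 0 percent of all genes, limma), 3 had an unadjusted p under 0.05, as did 1377 of all genes, and the lowest adjusted p was 0.626. These 3 were Prdx2, a cytosolic peroxiredoxin, with 10.81 in GFP cells with vitamin C and 10.01 in those without (interaction 0.77 ± 0.23), Gsr, with 7.60 and 7.89 (-0.69 ± 0.31), and Gclc, with 6.82 and 7.56 (-0.54 ± 0.24). Gsr was lower with vitamin C in the GFP pair of day 3 and had a difference of 0.00 in the SKO pair of that day, so its higher values in treated SKO cells came from later days.

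The second comparison asked how SKO cells differed from GFP cells on day 3, over both vitamin C conditions. In SKO cells 7 members (17.1%) were higher, against 9.22% of all genes, and 4 (9.76%) lower, against 8.43%, with 30 not past the threshold (limma). The members' median log2 difference was 0.27, against -0.04 over all genes. The higher members were Gsta4, Mgst1, Nqo1, Prdx1, Prdx4, Sod2 and Gpx1, and the lower ones Gpx3, Hmox1, Gstm2 and Gstm1. In an alternative, genes with a mean log2 signal under 4.54 were left out, Gpx2 and Gsta3 of the 41 members among them. Of the members kept 9 were then higher, against 16.1% of the 13292 genes kept, and 5 lower, against 14.5%. The shares of all genes thus depend on the weak genes counted.

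Among the glutathione transferases 2 of 8 were higher and 2 lower. Gsta4, an alpha-class enzyme active on lipid peroxidation products such as 4-hydroxynonenal, had log2 signals of 9.15 and 9.15 in SKO cells with and without vitamin C, against 7.87 and 7.47 in GFP cells with and without it. Mgst1, a membrane-bound transferase and peroxidase, had 8.40 and 8.46 in SKO cells, against 7.46 and 7.15 in GFP cells. Both were higher in each SKO array of any day than in either GFP array, and the share of all genes with this order was not counted. Since both were picked by a test that used these GFP arrays, the order adds no support. Their log2 differences were 1.48 ± 0.17 (2.79-fold, adjusted p = 7.8e-05) and 1.12 ± 0.17 (2.18-fold, adjusted p = 0.000546).

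Gstm1 had 7.04 and 7.27 in SKO cells, against 8.20 and 8.02 in GFP cells, and Gstm2 had 6.69 and 6.59 in SKO cells, against 7.75 and 7.44 in GFP cells. The groups did not overlap on day 3, which adds no support, since the genes were picked by a test on these same arrays. The log2 differences were -0.95 ± 0.24 (adjusted p = 0.0133) for Gstm1 and -0.96 ± 0.24 (adjusted p = 0.0137) for Gstm2. The other 4 transferases did not pass, with log2 differences of 0.09 for Gsta3, -0.76 for Gstp1, -0.34 for Mgst2 and 0.74 for Mgst3.

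Gpx3 showed the widest gap between the viruses, with 6.83 and 6.62 in SKO cells against 9.10 and 8.52 in GFP cells (log2 difference -2.08 ± 0.19, 4.23-fold lower, adjusted p = 1.67e-05). Gpx1, the main cytosolic glutathione peroxidase, was higher in SKO cells, with 8.86 and 8.77 against 8.36 and 8.04 in GFP cells (0.62 ± 0.14, adjusted p = 0.00932). Hmox1, which breaks down heme, had 7.14 and 7.63 in SKO cells against 8.26 and 8.62 in GFP cells (-1.05 ± 0.19, 2.07-fold lower, adjusted p = 0.00163). Nqo1, the other member of the quinone and heme group, was higher, with 6.96 and 6.88 in SKO cells against 5.96 and 6.05 in GFP cells (0.91 ± 0.16, adjusted p = 0.00134). These 2 NRF2 targets thus moved in opposite directions.

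In the thioredoxin group 2 of 7 were higher: Prdx1, a cytosolic peroxiredoxin (0.85 ± 0.16, adjusted p = 0.0026), and Prdx4, the peroxiredoxin of the endoplasmic reticulum (0.74 ± 0.18, adjusted p = 0.0107). A further probe of Prdx1 gave a log2 difference of 1.26. Sod2, the mitochondrial superoxide dismutase, was higher in SKO cells, with 8.27 and 7.88 against 7.24 and 7.59 in GFP cells (0.66 ± 0.19, adjusted p = 0.0266). No gene of glutathione synthesis and reduction (0 of 4), of the NADPH group (0 of 3), of conjugation, hydrolysis and export (0 of 3), no metallothionein (0 of 2) and no regulator (0 of 2) passed. Nfe2l2 had 8.17 and 8.05 in SKO cells against 8.18 and 8.15 in GFP cells.

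The call depended on the SKO day for part of the genes. With SKO cells of day 4 in place of day 3, Gsta4 (1.49), Mgst1 (1.20) and Sod2 (0.68) were higher, as 4.88% of all genes were, and Gpx3 (-1.06), Hmox1 (-1.0) and Gstm1 (-0.83) lower, as 2.9% were. Nqo1 (0.17), Prdx1 (0.23), Prdx4 (0.51), Gpx1 (0.30) and Gstm2 (-0.56) did not. Gpx3, Nqo1, Prdx1, Gpx1 and Gstm2 had differences from GFP cells that were over 1.5 times smaller with day 4 than with day 3. Leaving out the treated SKO array of day 3 also left 6 members, and 6.51% of all genes.

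**Figure D3:**
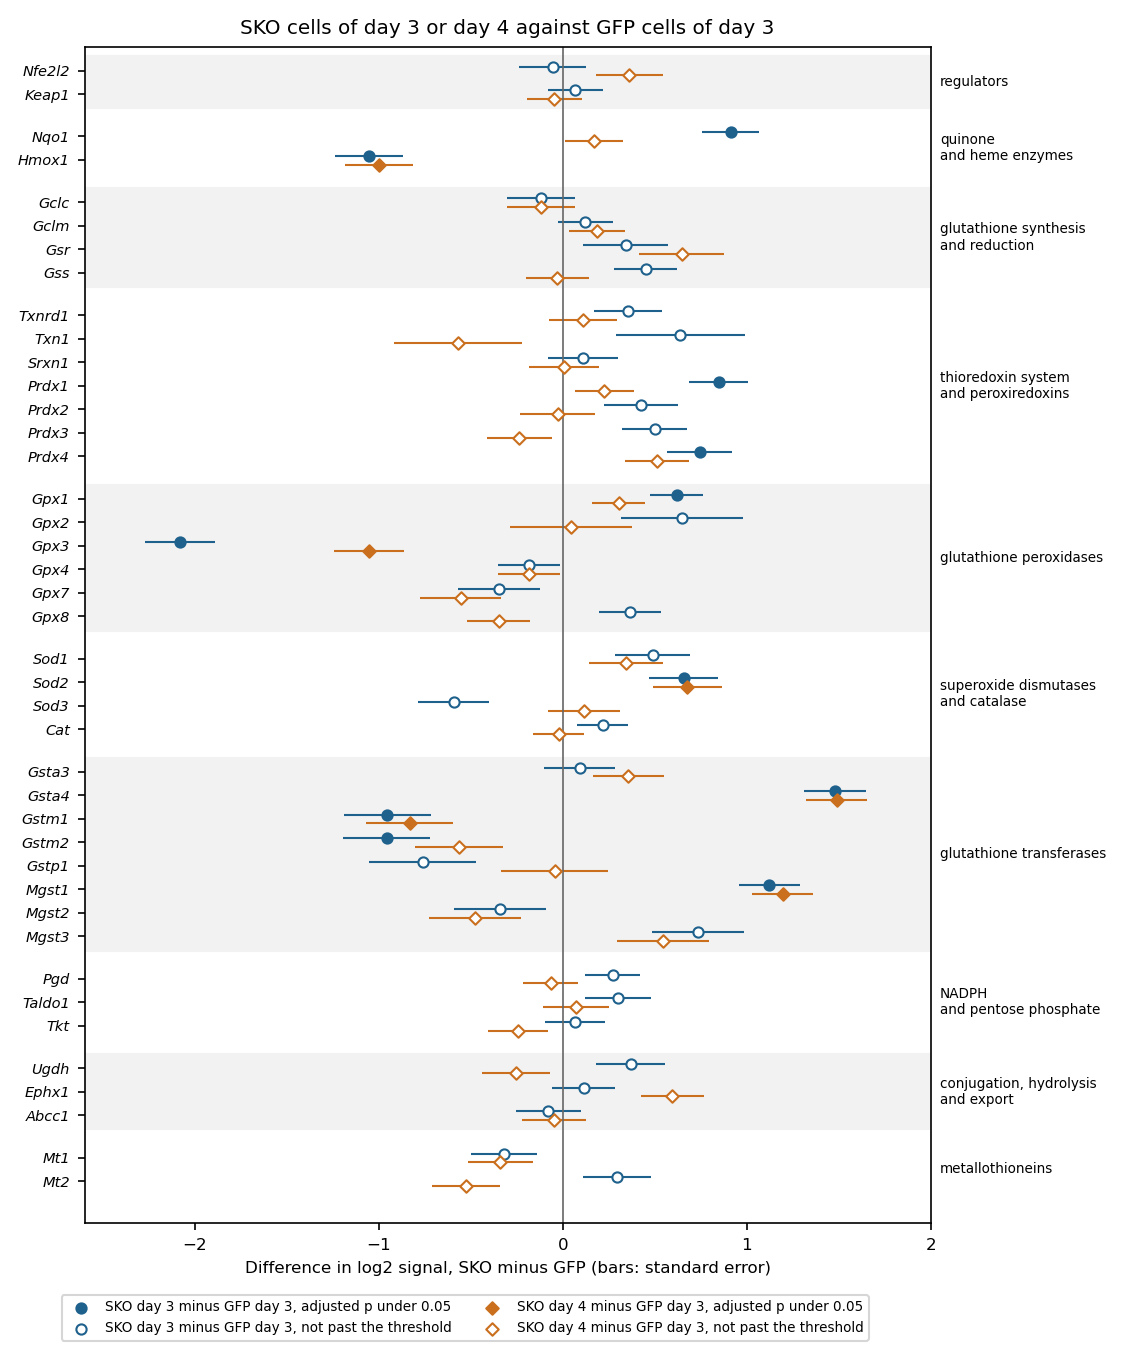
Log2 difference between SKO and GFP cells for the 41 members (rows, by role), with SKO cells of day 3 as circles and of day 4 as diamonds, filled where the adjusted p was under 0.05, and bars for the standard error. Gsta4, Mgst1, Sod2, Gpx3, Hmox1 and Gstm1 are filled on both days, while Nqo1 and Prdx1 lie near 0 on day 4.

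The third comparison followed SKO cells over the days, over both vitamin C conditions. On day 10, 7 members (17.1%) were higher than on day 3, against 6.55% of all genes, and 9 (22%) lower, against 5.64%, with 25 not past the threshold (limma). The median log2 difference was -0.15 for the members and -0.02 for all genes. Lower on day 10 were Nqo1, Srxn1, Tkt, Gpx7, Gpx8, Txnrd1, Gss, Abcc1 and Pgd. Higher were Gpx3, Mt2, Mgst1, Sod2, Gstm1, Mt1 and Gsta4. Without genes of mean log2 signal under 4.54, Gpx2 and Gsta3 left the set. Of the other members 7 were higher, against 10% of the genes kept, and 9 lower, against 10.7%.

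Nqo1 had log2 signals of 5.55 and 5.56 on day 10 with and without vitamin C, against 6.96 and 6.88 on day 3 (log2 difference -1.36 ± 0.15, 2.57-fold lower, adjusted p = 0.000193). It was already at 5.65 and 5.72 on day 5 and stayed between 5.49 and 5.84 after that, below either GFP array. Srxn1, at -0.88 ± 0.20 (adjusted p = 0.0121), and Txnrd1, at -0.69 ± 0.18 (adjusted p = 0.0279), were the 2 lower members of the thioredoxin group, of 7. Gss, the second enzyme of glutathione synthesis, fell by 0.57 (adjusted p = 0.0339), and Abcc1, an exporter of glutathione conjugates, by 0.55 (adjusted p = 0.0444). Of the 3 NADPH genes 2 were lower: the transketolase Tkt by 0.86 (adjusted p = 0.00421) and the phosphogluconate dehydrogenase Pgd by 0.50 (adjusted p = 0.0378). Of the glutathione peroxidases the endoplasmic reticulum members Gpx7 and Gpx8 fell by 0.82 (adjusted p = 0.0241) and 0.76 (adjusted p = 0.0077).

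Both metallothioneins were higher. Mt2 had 10.65 and 10.28 on day 10 with and without vitamin C, against 9.34 and 9.48 on day 3 (1.06 ± 0.19, 2.08-fold, adjusted p = 0.00305). Between these days it did not follow a straight course: day 4 gave 8.54 and 8.64, day 5 gave 10.03 and 9.88, and day 6 gave 9.0 and 8.66. Mt1 was higher by 0.77 ± 0.18 (adjusted p = 0.0154), with its treated arrays higher on each later day from 9.30 on day 3 to 10.34 on day 10. The low of Mt2 on day 4 was not seen to that depth in Mt1 (9.41 and 9.28). Whether the probes of these related genes share RNA was not tested.

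The transferases Mgst1, Gstm1 and Gsta4 (3 of 8) were higher on day 10 and none was lower. Mgst1 had 9.70 and 9.26 on day 10, against 8.40 and 8.46 on day 3 (1.05 ± 0.17, 2.07-fold, adjusted p = 0.00163). Gstm1 had 8.56 and 7.67, against 7.04 and 7.27 (0.96 ± 0.24, adjusted p = 0.0223), and the larger part of its difference came from the treated arrays. Gsta4 was higher by 0.60 ± 0.14 (adjusted p = 0.0169). Sod2 had 8.96 and 9.14 on day 10, against 8.27 and 7.88 on day 3 (0.97 ± 0.17, adjusted p = 0.00242). Gpx3 had 8.24 and 7.56, against 6.83 and 6.62 (1.17 ± 0.19, 2.25-fold, adjusted p = 0.0019), and on day 10 it was still under both GFP arrays of day 3. In each of these genes the 2 arrays of day 10 lay above the 2 of day 3. The genes were picked by a test on these same arrays, so this order adds no support. Macrophages express Sod2 and metallothioneins too; the mean log2 signal of the 15 macrophage markers ran between 4.57 and 5.77 in treated and between 4.50 and 5.88 in untreated SKO cells, and its part in these differences was not tested.

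**Figure D4:**
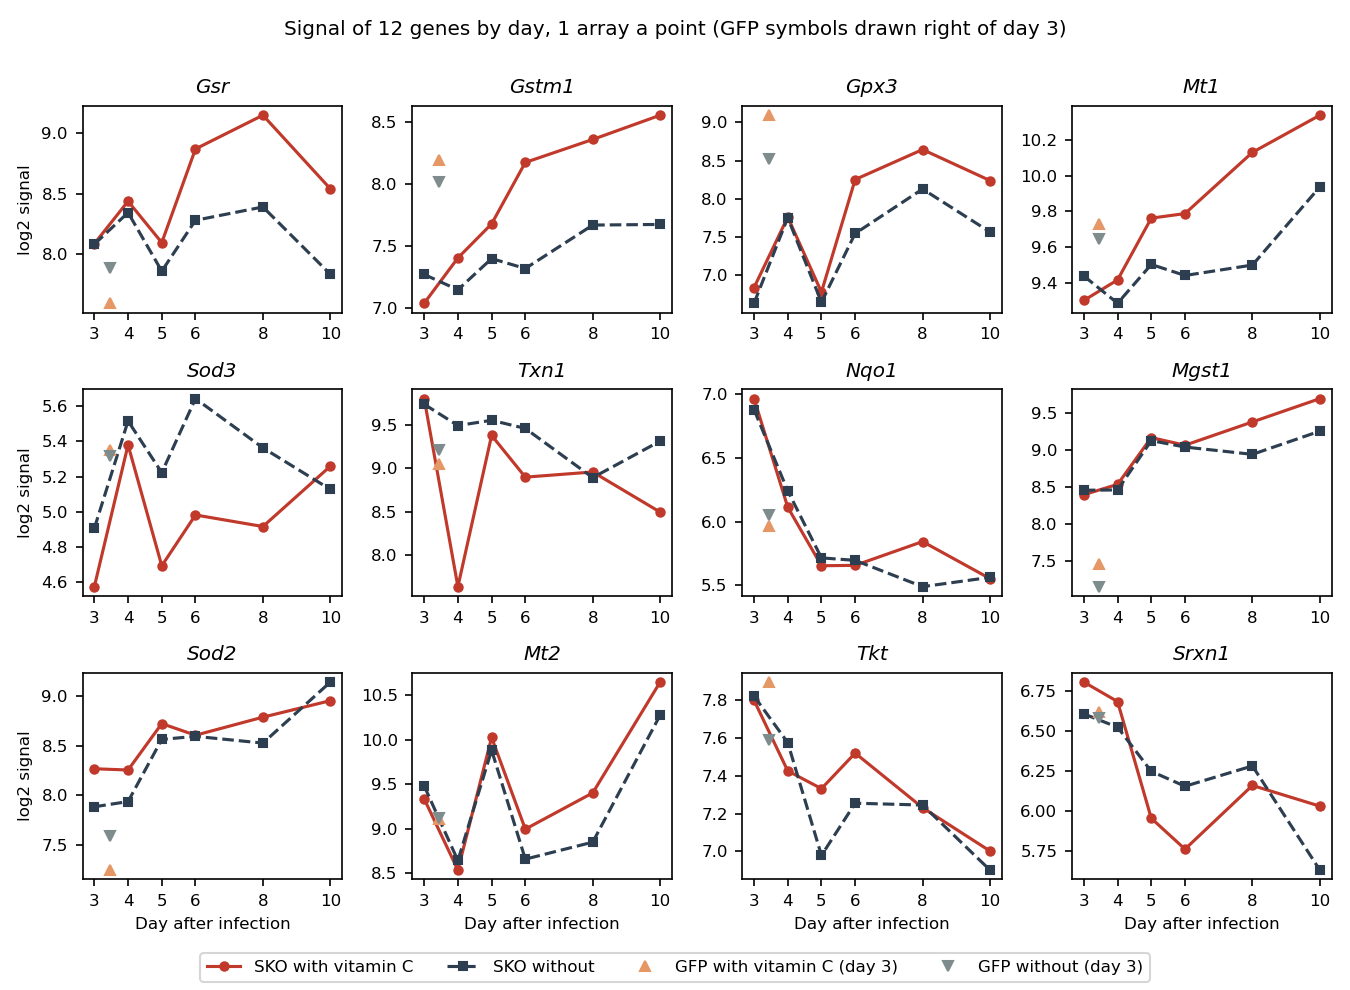
Log2 signal of 12 members by day, with 1 array per point: SKO cells with vitamin C (circles), SKO cells without it (squares), and the GFP arrays of day 3 (triangles). Gsr, Gstm1, Gpx3 and Mt1 of treated cells lie above untreated cells from day 6 on, while Nqo1 lies at 5.49 to 5.84 from day 5 on and Mt2 dips on days 4 and 6.

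The base day mattered. Against day 5 only Gpx3 passed (1.19, adjusted p = 0.0123), where 1.21% of all genes were higher. Against day 4, 7 members were higher, as 7.85% of all genes were, and 5 lower, as 8.11% were, and 10 of these 12 were among the 16 called against day 3. Mt2 then came to 1.87 (adjusted p = 0.000183) and Gpx3 to 0.15 (adjusted p = 0.670), while Gstp1 was lower by 1.17 (adjusted p = 0.0249) and Prdx1 higher by 0.53 (adjusted p = 0.0467). Without the treated array of day 3, 5 of the 16 members passed, and 4.83% of all genes.

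Over all 6 days, 14 members (34.1%) changed on some day, against 18.9% of all genes (limma, F test). They were Mt2, Gpx3, Nqo1, Gpx8, Mgst1, Sod2, Prdx3, Tkt, Srxn1, Prdx4, Txnrd1, Gsta4, Mt1 and Prdx2, in order of adjusted p between 0.000498 and 0.0482. Prdx2, Prdx3 and Prdx4 were in this list but did not pass between days 10 and 3. Of the 14, 5 passed without day 3 (9.99% of all genes) and 7 without day 10 (11.9% of all genes). Without genes of mean log2 signal under 4.54, Gpx2 and Gsta3 among them, 21 of the other members passed, against 35.3% of the genes kept.

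Some members took one level on days 3, 5 and 10 and another on days 4, 6 and 8. This division of days was taken from earlier results of these data and is given as a description. In 3 members (7.32%), all of them peroxiredoxins, every SKO array of days 3, 5 and 10 was above every SKO array of days 4, 6 and 8, as in 3.66% of all genes. Prdx1 ran between 9.74 and 9.94 on the first set of days and between 9.22 and 9.61 on the second, Prdx2 between 10.65 and 10.95 and between 10.14 and 10.47, and Prdx3, the mitochondrial peroxiredoxin, between 8.75 and 9.31 and between 8.29 and 8.60. The remaining measured peroxiredoxin, Prdx4, overlapped, with 7.98 to 8.71 on days 3, 5 and 10 and 7.67 to 8.23 on days 4, 6 and 8. Prdx1 and Prdx2 each had a further probe, which was not examined for this division of days. In another 3 members (7.32%) every array of days 3, 5 and 10 was below, as in 5.7% of all genes. Gclm ran between 7.28 and 7.64 on days 3, 5 and 10 and between 7.65 and 7.99 on the others, the epoxide hydrolase Ephx1 between 10.32 and 10.56 and between 10.66 and 11.01, and Nfe2l2 between 7.89 and 8.38 and between 8.41 and 8.74. The largest mean differences between the sets were those of Mt2 (1.09) and Gpx3 (-0.90), although their arrays overlapped. Tested between days within each set alone, 7 members passed over days 3, 5 and 10, as 6.18% of all genes did, and 0 over days 4, 6 and 8, as 0.878% of all genes did.

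**Figure D5:**
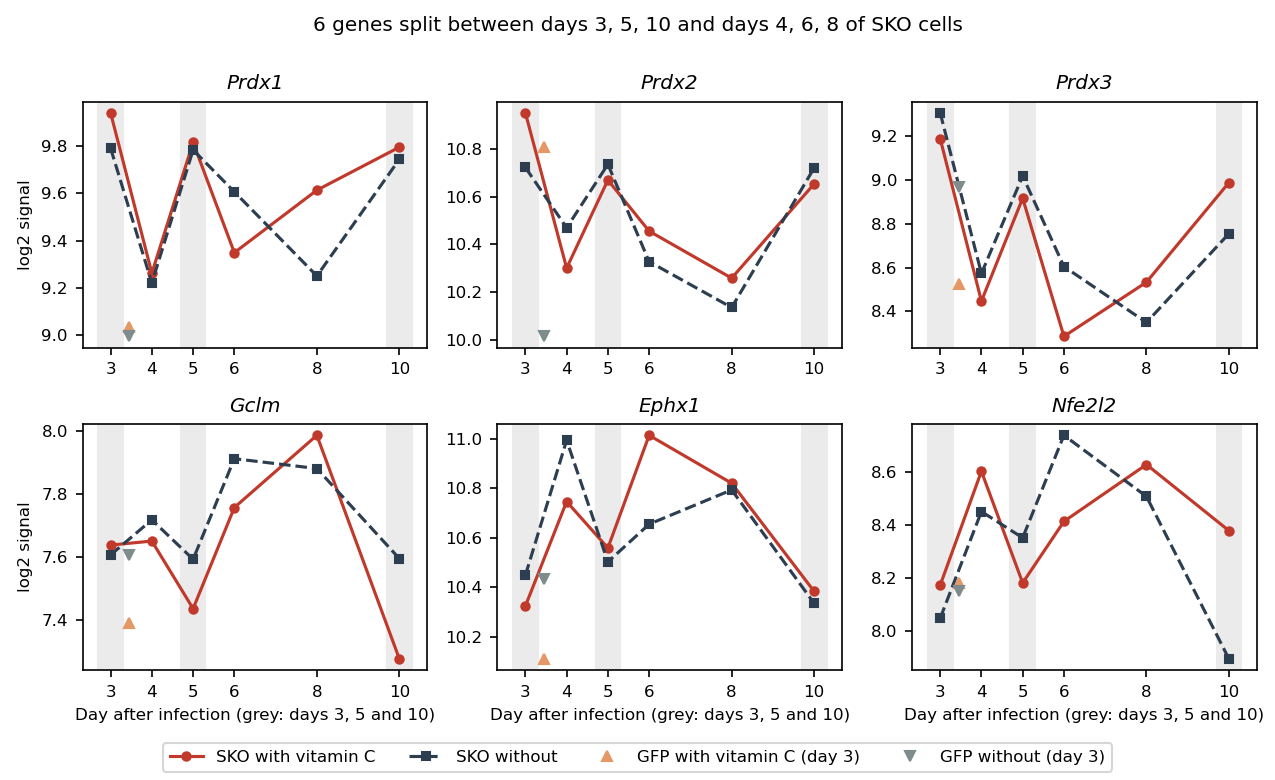
Log2 signal by day of the 6 members whose SKO arrays of days 3, 5 and 10 (grey) did not overlap those of days 4, 6 and 8, with the GFP arrays of day 3 drawn to the right of day 3. Prdx1, Prdx2 and Prdx3 are high on the grey days, and Gclm, Ephx1 and Nfe2l2 are low on them.

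Beyond the 41 members, 84 of 91 further genes of the same pathways were measured. With vitamin C 2 of the 84 were higher, against 0.642% of all genes, and none lower, against 0.291% (limma). They were the theta-class transferase Gstt2 (0.59 ± 0.10, adjusted p = 0.0203) and the mu-class transferase Gstm6 (0.63 ± 0.12, adjusted p = 0.0274), which had a weak mean log2 signal of 3.51. Gstt2 had 5.89, 5.52, 6.03, 6.15, 6.22 and 6.63 in treated SKO cells by day, against 5.49, 5.26, 5.51, 5.28, 5.44 and 5.94 in untreated SKO cells, and was higher on each day. In SKO against GFP cells on day 3, 10 of the 84 were higher, against 9.22% of all genes, and 11 lower, against 8.43%. The highest was Aldh3a1, an aldehyde dehydrogenase, at 3.39 (signals of 4.56 and 4.37 in GFP cells with and without vitamin C, low enough for the difference to be understated). Next came Lap3 (1.27), Abcg2 (0.85) and Maff (0.83), and the lowest were Selenow (-1.70), Gstm3 (-1.34), Sesn3 (-1.17) and Sesn2 (-1.11). The SKO day mattered here too. Selenow had 7.85 and 7.86 in SKO cells with and without vitamin C on day 3 but 9.17 and 9.17 on day 4, against 10.06 and 9.07 in GFP cells. Sesn3 stayed lower on day 4, with 7.55 and 7.77 against 8.89 and 8.77 in GFP cells. The test with day 4 is given for the members only. Between days 10 and 3 of SKO cells 13 of the 84 were higher, against 6.55% of all genes, and 5 lower, against 5.64%. The highest were Aldh3a1 (2.58), the selenium carrier Selenop (2.41), the thioredoxin-binding Txnip (1.59) and the cystine transporter Slc7a11 (1.46), and the lowest Akr1b8 (-1.24), the malic enzyme Me1 (-1.09), Akr1b10 (-0.64) and Gsto1 (-0.57).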

How the data were processed

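Total RNA (100 ng) of 14 MEF cultures was measured with Affymetrix arrays of whole transcripts, per the labels' protocols. For each array the authors deposited 1 value a probe, made with RMA and Partek per the submitters' processing notes (versions not given in the sources used here); standard RMA corrects background, quantile-normalizes and summarises probes. The range of the deposited values was read as that of log2 signals (0.724 to 14.1). Of 28853 probes, 21789 had 1 symbol in the platform annotation, 1621 several and 5443 none. Entrez identifiers linked the symbols to RefSeq's gene table (GRCm38.p6; 19856 of 19938 genes found), and a gene was its probe of highest mean.

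Comparisons were fitted with limma 3.58.1 (lmFit and eBayes; R 4.3.3), and an adjusted p under 0.05 (Benjamini-Hochberg, over 19938 genes) was called. The vitamin C and day tests used the 12 SKO arrays with vitamin C and the day as factors, and SKO against GFP used all 14 arrays. The labels pair arrays by day, and deviations of paired arrays from the mean of their arm correlated across genes with Pearson r between 0.248 and 0.677. Code was tested on simulated data. Alternatives were other normalizations, filters, variance models, probe means, day codings, base days and omitted days or arrays. All members past a threshold were named; values by array were given for the 6 members of largest moderated t (vitamin C) or largest difference. The members and gene lists were chosen with earlier results of these data known. Figures used matplotlib 3.10.9 in Python 3.11.15.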

Additional observations from a re-analysis of the deposited data

Results flagged for a closer look

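Within each SKO group, a day was set apart where the gap between the highest or lowest array and the next exceeded Dixon's 95% critical value for 6 samples. The 6 arrays of a group are different days, so such a gap can be part of a time course, and chance alone gives about 1 in 20. Of 82 groups of 6 arrays (41 members in 2 SKO groups) 3 had such an array. Taldo1, the transaldolase of the pentose phosphate pathway, had a log2 signal of 6.85 in treated SKO cells on day 6, below 7.12 to 7.27 on their other days. Sod1, the cytosolic superoxide dismutase, had 10.9 in untreated SKO cells on day 6, above 10.4 to 10.6 on their other days. Mt1 had 9.94 in untreated SKO cells on day 10, above 9.28 to 9.50 on their other days.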

How the results depend on the processing

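For vitamin C no member passed under any alternative other than leaving out day 3 and using days 6 to 10 alone. There 1 did (Gstm1), as did 1.32% and 1.14% of all genes, and leaving out each day gave 0 to 1 members. The pairing of arrays by day is a block in that test; with the day as a number or with no day term (no replicate block) 0 members passed too. Between days 10 and 3, where 16 members passed, day 5 as the base left 1. Leaving out day 4, 5, 6 or 8 gave 13 (without day 5, 10.3% of all genes) to 16. Leaving out any 1 array of day 3 or day 10 leaves 1 array on that day, and fewer members and fewer of all genes passed each time. Between days 10 and 3, day 5 as the base called 1.73% of all genes. For any day, where 14 members and 18.9% of all genes passed, an intensity trend gave 23 members and 25.1% of all genes. Days 3, 5 and 10 alone gave 7 (6.18% of all genes), and days 4, 6 and 8 alone 0 (0.878%). Leaving out each day gave 5 without day 3 (9.99%) to 20 without day 6 (19.7%), with 7 without day 10 (11.9%). For SKO against GFP, where 11 passed, SKO cells of day 4 left 6 (7.78% of all genes). Leaving out 1 array of day 3 leaves 1 for that virus on that day, and fewer members and fewer of all genes passed each time. None of the members called higher or lower turned its direction in any alternative: recomputed under the alternatives, called results kept the call 510 times and lost it 131 times, and the causes were not tested. Members not called did turn: with day 4 for day 3, the sign of the difference turned in 14 of 25 such members for day 10 and in 13 of 30 for SKO against GFP, among them Txn1 in both. Median centring moved the split of all genes between days 10 and 3 to 1124 higher and 1545 lower, against 1306 and 1124, and left the members at 7 higher and 9 lower. Signals near the bottom of the range, as of Gpx2 and Gsta3, limit what can be seen there.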
